A study of Mus musculus with 13 samples.

Results

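The effect of fasudil on its own was examined in mouse aorta, by setting the RNA of fasudil-fed mice against that of mice given plain water. Of the 13 libraries of the series, 3 are from the fasudil group and 4 from the vehicle group, and all 7 were compared. Of 28510 genes with values, the 12718 that reached at least 1 FPKM (fragments normalised to transcript length and library size) in 2 or more of these 7 libraries were tested. The series was made to study tearing of the aortic wall (dissection), and its other groups received β-aminopropionitrile (BAPN), alone or with fasudil.

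Fasudil mice drank fasudil in water at 150 mg/kg/day, from an arm of 10 mice. Vehicle mice drank water alone, from an arm of 11. Both had 1 week to settle in and then 4 weeks of experiment, and neither group received BAPN. In the groups used for a side comparison, BAPN with fasudil combined BAPN at 0.25% in water with the same dose of fasudil, added after 1 week of BAPN alone, and BAPN mice had BAPN at 0.25%. Strain, sex and age are not given in the sources used here, nor whether a library holds 1 mouse or several, so p-values measure only the spread between these libraries. The tissue is labelled aorta.

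Fasudil inhibits the kinases that Rock1 and Rock2 encode. These kinases are switched on by the small GTPase RhoA and raise smooth muscle tone by inhibiting myosin phosphatase, so that myosin light chain stays phosphorylated. They also promote actin filament assembly, which frees the coactivators MRTF-A and MRTF-B to enter the nucleus and, with serum response factor (SRF), drive genes of actin and contraction. Fasudil is used as a vasodilator.

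The libraries, of an estimated 20.4 to 20.8 M reads each, held much more than smooth muscle. The 22 contractile markers summed to 1602, 1154 and 7744 scaled FPKM in fasudil 1, 2 and 3, against 5394, 7725, 5631 and 3203 in vehicle 1, 2, 3 and 4. Brown adipocyte markers were abundant in every library, with Ucp1, the uncoupling protein of brown fat, at 3166, 4441 and 1265 scaled FPKM with fasudil and 3817, 2729, 2030 and 3903 with vehicle. Sympathetic neuron markers set fasudil 2 and 3 apart, with sums of 616 and 1525, against 10.6 in fasudil 1 and 13.7 to 65.8 in the vehicle libraries. Skeletal muscle markers summed to 742 in fasudil 1, against 39.7 and 51.4 in the other fasudil libraries and 60.7 to 246 in vehicle. Airway and other epithelial markers summed to 12714 in vehicle 3, against 1.21 to 12.8 in the fasudil libraries and 3.17 to 6.90 in the other vehicle libraries. Over the 20 marker lists the smallest two-sided exact permutation p for a difference in summed level was 0.114, for endothelium, and 35 splits allow none below 0.0571. Mitochondrial transcripts took 40.9% to 51.1% of the FPKM in fasudil libraries and 43.6% to 53.3% in vehicle libraries. Rank correlations across genes were 0.885 to 0.948 between fasudil libraries and 0.951 to 0.978 between vehicle libraries, a description only, since genes are not replicates.

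**Figure D1:**
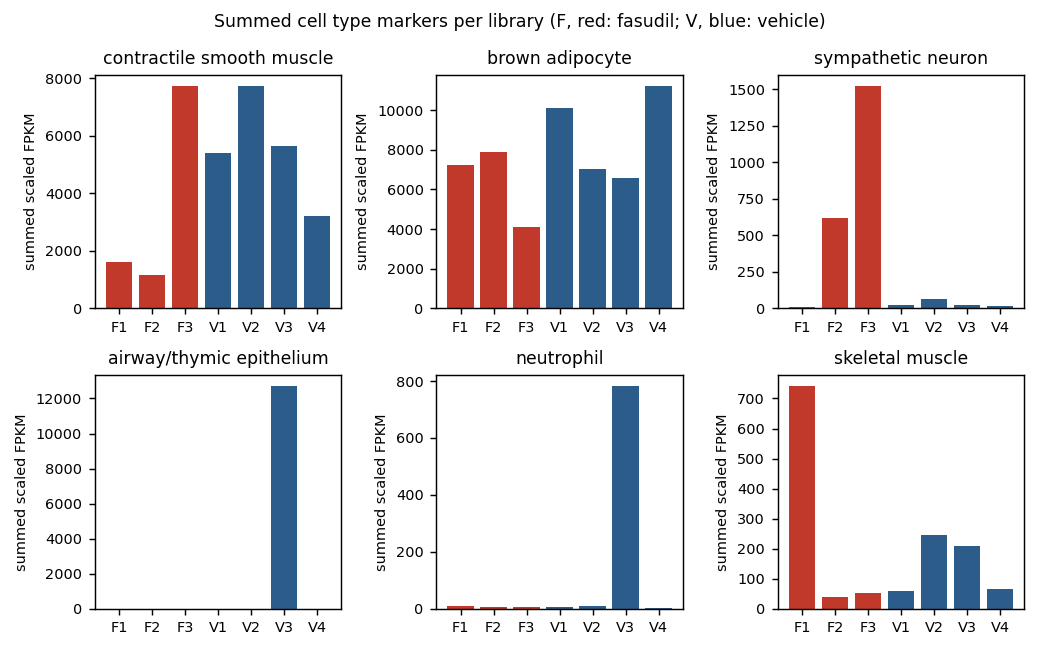
Summed scaled FPKM of 6 cell type marker lists in each library, fasudil libraries F1 to F3 in red and vehicle libraries V1 to V4 in blue, each panel on its own linear axis from 0. Fasudil 1 and 2 are low for contractile markers (1602 and 1154), fasudil 2 and 3 are high for sympathetic neuron markers (616 and 1525), and vehicle 3 holds nearly all the epithelial signal (12714). The neutrophil bar of vehicle 3 is nearly all a single marker, Ltf (780).

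No gene passed the test for fasudil against vehicle: limma called 0 of 12718 genes (0%) at an adjusted p under 0.05, with 1445 (11.4%) at an unadjusted p under 0.05, 815 of them higher (6.41%) and 630 lower (4.95%) with fasudil. The lowest adjusted p was 0.153. All 3 fasudil libraries lay above all 4 vehicle libraries for 753 genes (5.92%) and below them for 669 (5.26%). The verdict turned on single libraries. Without fasudil 1, 203 genes passed, 193 of them higher, and 14 of the 15 sympathetic neuron markers were among them. Without fasudil 3, 100 genes passed, 50 in each direction, and they included Rock1, Srf, contractile genes and 4 clock genes. Of these, 6 genes were shared, 2.96% of the 203 and 6% of the 100, among them Coq10b, Eci3, Vgll4, Slc36a1 and Cxcr4, the last a chemokine receptor named here after its values were seen. Leaving out any other library gave 0. The differences below are therefore given as measured values, none of which passed with all 7 libraries.

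Coq10b, on chromosome 1 (55091929 to 55111861, GRCm39), encodes a mitochondrial protein that binds coenzyme Q. Its values were 14.4, 13.3 and 15.2 scaled FPKM with fasudil, against 28.3, 31.3, 26.3 and 32.2 with vehicle (log2FC -0.99 ± 0.11, adjusted p = 0.153). Vgll4, a cofactor that competes with YAP for TEAD transcription factors, had 19.3, 14.7 and 13.7 scaled FPKM in fasudil libraries and 35.1, 33.6, 29.1 and 36.7 in vehicle libraries. Eci3, an enoyl-CoA isomerase of fatty acid breakdown, had 3.32, 3.06 and 3.33, against 6.32, 5.97, 6.89 and 6.88. In each of these 3 genes the fasudil libraries lay close together and well below the vehicle libraries. They passed both without fasudil 1 and without fasudil 3, with adjusted p of 0.0213 and 0.0363 for Coq10b, 0.0139 and 0.0439 for Vgll4, and 0.0283 and 0.0415 for Eci3. Without fasudil 2 the limma adjusted p was 0.613 for each. The genes were named by small p in these same libraries, and the 2 fits share fasudil 2 and every vehicle library. Passing both is therefore no independent support.

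Ffar4, a receptor for long-chain fatty acids found on adipocytes, averaged 10.7 ± 3.8 scaled FPKM with fasudil (SD, n = 3) and 37.4 ± 8.7 with vehicle (SD, n = 4), a log2FC of -1.75 ± 0.27 (SE). The remaining genes named as lower by the p rule were H4c8 (a histone H4 gene), Nrtn (neurturin, a neurotrophic ligand), Derpc, Pex11g (peroxisome division) and Pabpc4 (a poly(A)-binding protein), with log2FC between -1.26 and -0.56. All had an adjusted p of 0.278, and their groups did not overlap, which the p rule required. Derpc lies wholly inside the same-strand gene Chtf8, so its reads are uncertain.

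Among genes higher with fasudil, Slc36a1, a lysosomal amino acid transporter on chromosome 11 (55095176 to 55127156, GRCm39), had the smallest p. It had 5.08, 6.79 and 9.09 scaled FPKM in fasudil libraries and 2.24, 2.51, 2.60 and 2.44 in vehicle libraries (log2FC 1.18 ± 0.17, adjusted p = 0.278). Fst, which encodes the activin-binding protein follistatin, had 6.72, 4.47 and 4.62, against 2.52, 1.49, 1.702 and 1.60. Serpina3n, a secreted serine protease inhibitor, had 20.9, 19.9 and 15.98 with fasudil and 3.53, 9.10, 5.66 and 4.85 with vehicle. The p rule named only genes whose groups did not overlap. By that selection, the lowest fasudil library was above the highest vehicle library in each of these genes. Apod, an apolipoprotein of lipid transport, was at 87.1, 112 and 74.5 with fasudil and 24.3, 21.9, 46.5 and 20.6 with vehicle, and Zfp36, whose product speeds the decay of short-lived messenger RNAs, at 33.9, 43.0 and 37.6, against 18.8, 23.9, 22.4 and 15.6. Asl, the argininosuccinate lyase that makes arginine, and Agfg2 completed the genes with even fasudil values, with log2FC of 0.68 and 0.49.

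The largest log2FC of the genes named as higher belonged to Eef1a2, a translation elongation factor of muscle and neurons, with 10.6, 24.5 and 45.5 scaled FPKM in fasudil libraries and 0.62, 2.72, 2.92 and 0.69 in vehicle libraries (3.25 ± 0.53, adjusted p = 0.278). Spock2, a secreted proteoglycan, had 8.06, 13.4 and 22.9, against 1.91, 3.95, 2.61 and 1.62. Both were highest in fasudil 3, then fasudil 2, the order of the sympathetic neuron sums of 1525 and 616. Slc36a1, at 5.08, 6.79 and 9.09 in fasudil 1, 2 and 3, and Asl, at 19.4, 20.9 and 24.2, had that order too. Fasudil 1, with a neuron sum of 10.6 and a skeletal muscle sum of 742, was above every vehicle library for Eef1a2 and Spock2, which the p rule required. Vehicle 2 and 3, with Eef1a2 at 2.72 and 2.92, had skeletal muscle sums of 246 and 208 and neuron sums of 65.8 and 25.9. Vehicle 1 and 4, with Eef1a2 at 0.62 and 0.69, had skeletal muscle sums of 60.7 and 64.6 and neuron sums of 21.5 and 13.7. Vamp1, a vesicle fusion protein of nerve endings, had 6.40, 8.45 and 8.12 with fasudil and 4.85, 3.44, 3.36 and 3.43 with vehicle. It shares 7928 bases with the opposite-strand gene Tapbpl, which reached 6.68 FPKM as deposited. Whether reads were counted by strand is not given in the sources used here, so the reads of Vamp1 are uncertain. The part of neurons and skeletal muscle in the values was not tested.

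**Figure D2:**
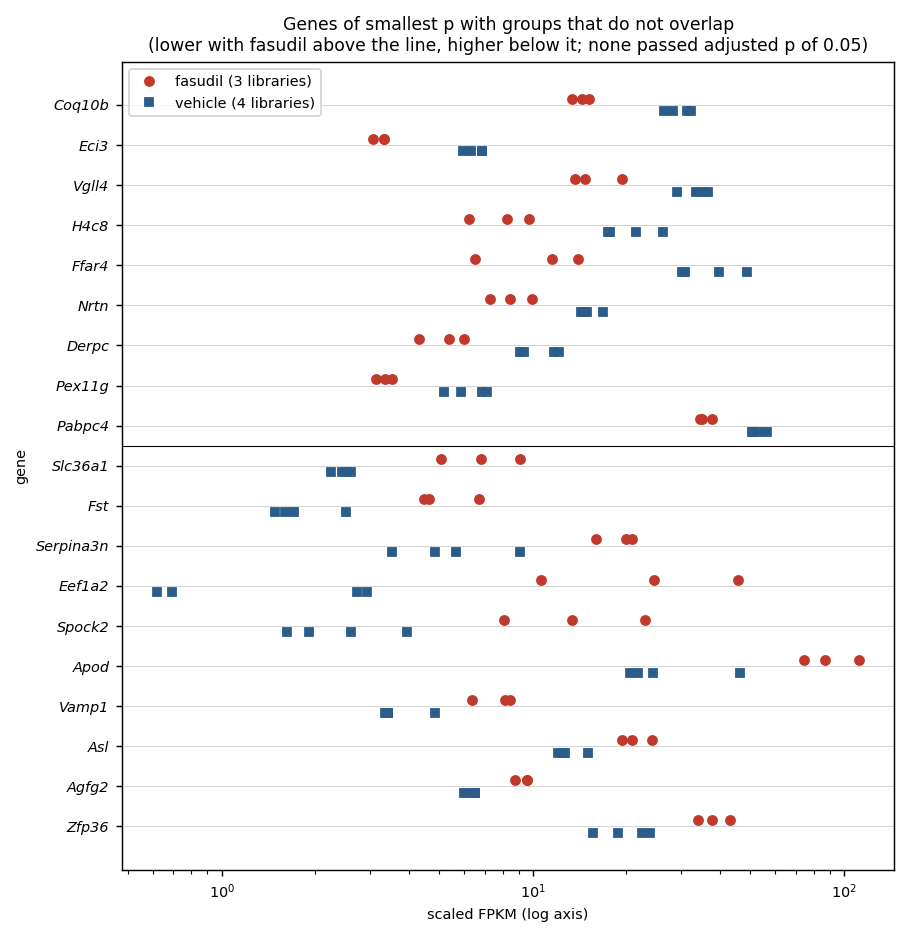
Scaled FPKM (log axis) of 9 lower and 10 higher genes of small p whose groups do not overlap, 1 row per gene, with fasudil libraries as red circles above vehicle libraries as blue squares. The genes above the line are lower with fasudil and those below it are higher; Ffar4 has the lowest log2FC among the lower genes (-1.75) and Eef1a2 the highest among the higher ones (3.25).

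Of the kinases that fasudil targets, Rock1, on chromosome 18 (10064401 to 10182045, GRCm39), had 6.22, 5.48 and 7.90 scaled FPKM with fasudil and 11.4, 10.7, 12.3 and 9.77 with vehicle. Every fasudil library was below every vehicle library, and the log2FC was -0.69 ± 0.14 (adjusted p = 0.288; 0.0447 without fasudil 3 and 0.177 without fasudil 1). Rock2 had 6.75, 5.81 and 7.69, against 6.84, 7.93, 8.34 and 6.41, and these groups overlap. Its log2FC was -0.11 ± 0.13, and 0.060 without scaling between libraries. Rhoa, the GTPase upstream of both kinases, was at 124, 122 and 131 with fasudil and 134, 130, 122 and 133 with vehicle, with a log2FC of -0.05 ± 0.10, and 0.15 without scaling. Arhgef11, an exchange factor that activates RhoA, was high, at 9.07, 8.63 and 8.91 with fasudil and 7.07, 7.01, 5.70 and 7.69 with vehicle. Ppp1cb, the catalytic subunit of myosin phosphatase, was low beside Rock1, at 39.4, 41.6 and 46.0, against 62.2, 48.4, 50.8 and 51.1. Rock1 RNA was thus low in every fasudil library while Rock2 and Rhoa overlapped between groups, and no test of Rock1 against Rock2 was made.

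Srf, the transcription factor that MRTF acts through, had 13.3, 12.2 and 16.7 scaled FPKM in fasudil libraries and 20.8, 22.0, 21.4 and 20.2 in vehicle libraries (log2FC -0.56 ± 0.12, adjusted p = 0.304; 0.0415 without fasudil 3). The vehicle libraries were close together and the fasudil libraries all lay below them. Actg1, cytoplasmic gamma-actin, had 158, 181 and 381 with fasudil and 360, 441, 436 and 403 with vehicle. Here fasudil 3 was inside the vehicle range, and the adjusted p was 0.400 with all libraries and 0.0363 without fasudil 3. Myocd, the SRF coactivator of smooth muscle, had 0.26, 0.15 and 0.44, against 1.11, 1.497, 1.57 and 0.38. Of 24 actin and SRF genes, all tested, 21 had a log2FC below 0, with a median of -0.68, against -0.0067 over all genes tested. The list's median was -1.07 without fasudil 3, -0.29 without fasudil 2 and -0.45 without fasudil 1. At an unadjusted p under 0.05, 5 were lower (background 4.95%) and 1 was higher. Without fasudil 3, Actb, named after its values were seen, passed together with Srf and Actg1; without fasudil 1, none of the list did.

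SRF binds the CArG box, a stretch of A and T between CC and GG. In RefSeq promoter windows (GRCm38.p6, 250 bases before to 50 after the gene start), 20 of the 24 actin and SRF genes were matched. Of these 20, 7 held a CArG box, against 1.81% of 27025 genes. The list was drawn up from SRF, its coactivators and known SRF targets, so the share describes the list and is no test. The windows of Srf (chr17:46556113-46556412, minus strand) and Actg1 (chr11:120348446-120348745, minus strand) are shown because both genes had a log2FC below 0. For Actg1, fasudil 3 lay inside the vehicle range. Capitals mark each CArG box, at -82 and -62 in Srf and at -90 in Actg1 from the start site.
Srf: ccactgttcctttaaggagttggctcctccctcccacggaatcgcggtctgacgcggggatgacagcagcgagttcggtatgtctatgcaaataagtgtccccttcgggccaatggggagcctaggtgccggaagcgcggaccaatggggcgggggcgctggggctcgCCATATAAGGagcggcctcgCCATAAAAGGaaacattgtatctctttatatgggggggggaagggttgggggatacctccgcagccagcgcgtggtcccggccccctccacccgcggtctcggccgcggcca
Actg1: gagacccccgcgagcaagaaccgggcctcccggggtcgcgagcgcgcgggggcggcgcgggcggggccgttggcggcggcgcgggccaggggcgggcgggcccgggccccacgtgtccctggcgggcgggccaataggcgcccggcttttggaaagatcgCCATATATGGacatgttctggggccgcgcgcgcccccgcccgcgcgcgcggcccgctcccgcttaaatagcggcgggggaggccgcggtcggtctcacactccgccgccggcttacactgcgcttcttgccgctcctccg

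Genes of smooth muscle contraction differed widely among the fasudil libraries. Acta2, smooth muscle actin, had 271, 152 and 2123 scaled FPKM with fasudil and 1436, 2208, 1598 and 686 with vehicle (log2FC -1.62 ± 0.87, adjusted p = 0.527). Myh11, smooth muscle myosin heavy chain, had 46.3, 33.1 and 285, against 211, 304, 222 and 124. Fasudil 1 and 2 were below all vehicle libraries and fasudil 3 was among the highest of the 7. All 22 contractile genes were tested, 19 had a log2FC below 0 and the median was -0.97 (-1.80 without fasudil 3 and -0.40 without fasudil 2), with 0 at an unadjusted p under 0.05 in either direction. Without fasudil 3, 3 of them passed, Myh11 (log2FC -2.35, adjusted p = 0.0439), Myl6 (-1.46, 0.0457) and Myl9, the last named after its values were seen. In bulk tissue, fewer cells of a type and less RNA per cell cannot be told apart. The contractile sums of 1602 and 1154 in fasudil 1 and 2 stand beside the low Actg1 and Srf values of the same libraries.

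**Figure D3:**
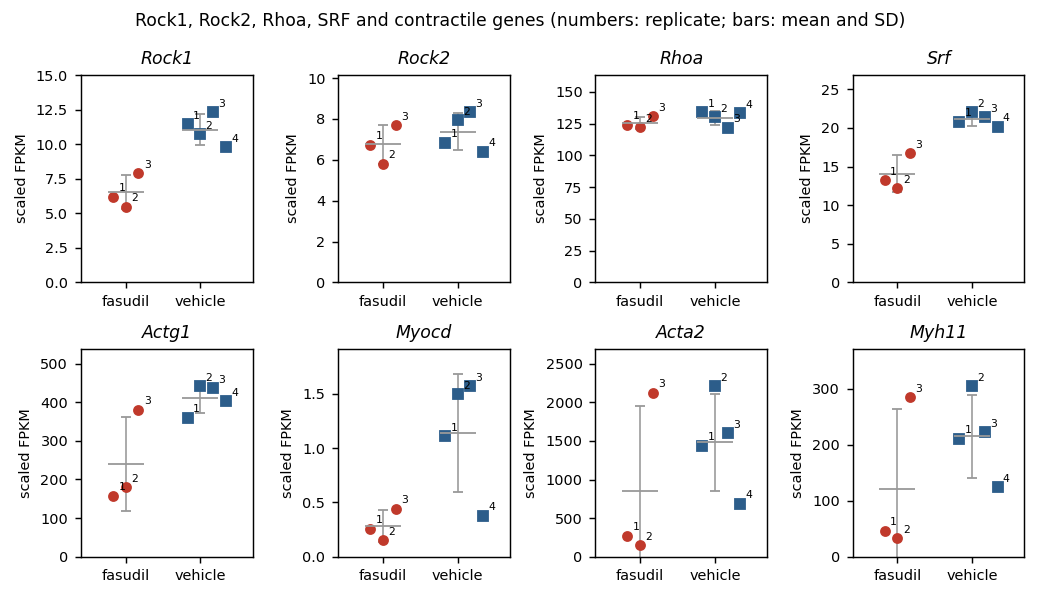
Scaled FPKM of Rock1, Rock2, Rhoa and 5 genes of the SRF and contractile programmes, fasudil on the left (red circles) and vehicle on the right (blue squares), numbered by replicate, with mean and SD (n = 3 and 4), each axis from 0; the lower bars of Acta2 and Myh11 reach below 0 and end at the axis. Rock1 and Srf separate the groups, Rock2 and Rhoa do not, and fasudil 3 stands with the vehicle libraries for Actg1, Acta2 and Myh11.

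Enzymes of fat storage tended to low values. Scd1, the desaturase that makes oleate, had 320, 244 and 301 scaled FPKM in fasudil libraries, against 1009, 935, 502 and 689 in vehicle libraries (log2FC -1.40 ± 0.26, adjusted p = 0.278). Fasn, fatty acid synthase, had 364, 180 and 1040 with fasudil and 3070, 2267, 927 and 1643 with vehicle, and fasudil 3 overlapped vehicle 3. Acaca, which makes malonyl-CoA for fatty acid synthesis, had 34.2, 25.9 and 72.8, against 149, 113, 43.7 and 98.7. The acyltransferase Agpat2 completed the 4 members lower at an unadjusted p under 0.05 (4.95% of all genes), with 441, 468 and 362 against 774, 767, 483 and 825. All 22 members were tested, 17 were below 0, none was higher at that p (6.41%), and the median log2FC was -0.38.

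Fatty acid oxidation genes had a median log2FC of -0.38 too, over 21 tested members of 22, with 5 lower and 0 higher at an unadjusted p under 0.05 (4.95% and 6.41% of all genes). The median was -0.16 without fasudil 3. Hadhb, a subunit of the mitochondrial trifunctional protein, had 833, 805 and 480 scaled FPKM with fasudil and 1631, 997, 1052 and 1532 with vehicle. Acaa1b, a peroxisomal thiolase, had 25.1, 19.3 and 16.1, against 31.5, 37.7, 31.9 and 60.4. Acaa2, the mitochondrial thiolase, and Pdk4, a kinase that restrains glucose oxidation, also had groups that did not overlap, with log2FC of -0.70 and -0.68. For all 4 the adjusted p was between 0.349 and 0.424.

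Brown adipocyte markers were mostly below 0. Cidea, a lipid droplet protein of brown fat, was at 640, 642 and 647 scaled FPKM with fasudil and 1391, 946, 1095 and 1628 with vehicle (log2FC -0.94 ± 0.20, adjusted p = 0.304). Cox7a1, a cytochrome oxidase subunit of muscle and brown fat, had 489, 353 and 364, against 1043, 611, 601 and 949. Ucp1 overlapped between the groups. Of 14 tested brown adipocyte markers, 4 were lower and 0 higher at an unadjusted p under 0.05 (4.95% and 6.41% of all genes), and 13 were below 0, with a median of -0.56, which was -0.22 without fasudil 3 and -0.33 without vehicle 4. The summed brown markers were 7242, 7902 and 4114 with fasudil and 10086, 7025, 6563 and 11235 with vehicle. These sums overlap, and their part in the fat metabolism values was not tested. Among general adipocyte markers, Lep, the hormone leptin, was high with fasudil, at 10.1, 6.92 and 2.78, against 2.19, 1.07, 1.13 and 0.48 (log2FC 1.698 ± 0.40, adjusted p = 0.321), while Adrb3, the adrenergic receptor of fat cells, had 72.1, 50.5 and 45.0, against 88.9, 73.7, 71.9 and 102. The median of the 19 general adipocyte genes was -0.03, 0.17 without scaling, and -0.11 to 0.12 when 1 library was left out.

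Respiratory chain genes were mostly below 0 and ribosomal protein genes mostly above it. Over nuclear genes of oxidative phosphorylation, 24 of 24 tested had a log2FC below 0, 7 were lower at an unadjusted p under 0.05 and 8 had groups that did not overlap (background 4.95% and 5.26%), with a median of -0.42 (-0.25 without fasudil 3). Their summed level was 14270, 14023 and 10026 scaled FPKM with fasudil and 19983, 14008, 13928 and 20381 with vehicle, and these sums overlap. Ndufs1, a complex I subunit, had 160, 137 and 101 scaled FPKM in fasudil libraries and 245, 163, 163 and 247 in vehicle libraries. All 13 genes of the mitochondrial genome were below 0 too, with a median of -0.39 that was -0.14 without fasudil 3, -0.65 without fasudil 1 and -0.26 without vehicle 1. Another complex I subunit gene, mt-Nd3, had 465, 291 and 274, against 773, 488, 579 and 810. The summed brown adipocyte markers were lowest in fasudil 3 and highest in vehicle 1 and 4 (7242, 7902 and 4114 with fasudil, against 10086, 7025, 6563 and 11235 with vehicle), as were the summed respiratory chain genes, and their part was not tested. Of 28 ribosomal protein genes, 27 were above 0 and 10 had all fasudil libraries above all vehicle libraries (background 5.92%), with a median of 0.20. Rpl27 had 122, 111 and 151 with fasudil and 80.2, 77.4, 92.7 and 89.4 with vehicle, and Rps6 had 158, 154 and 216, against 117, 118, 133 and 124. Scaling shifted these medians without changing their sign: without scaling they were -0.22 for the nuclear genes, -0.19 for the mitochondrial genes and 0.40 for the ribosomal genes, while the median of all genes was 0.158. The whole set of unadjusted calls also leaned with the scaling, with 56.4% of them higher as scaled, 89.2% without scaling and 86.2% once mitochondrial genes were left out of the totals, where the all-gene median was 0.117.

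Genes of cholesterol synthesis were mostly above 0, in 14 of 19 tested, with a median of 0.50 (0.27 without fasudil 3), 4 higher and 0 lower at an unadjusted p under 0.05 (6.41% and 4.95% of all genes). Sc5d, a late enzyme of the pathway, had 16.6, 20.8 and 11.9 scaled FPKM with fasudil, against 8.85, 10.6, 7.82 and 7.55 with vehicle. Nsdhl, another sterol enzyme, had 11.6, 13.1 and 13.4, against 10.2, 9.16, 7.57 and 9.90. Both separated the groups, whereas Cyp51, the lanosterol demethylase, was within the vehicle range in fasudil 1 (4.00, 6.81 and 8.26, against 3.88, 4.12, 3.55 and 3.83) and passed only without that library (adjusted p = 0.0410).

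**Figure D4:**
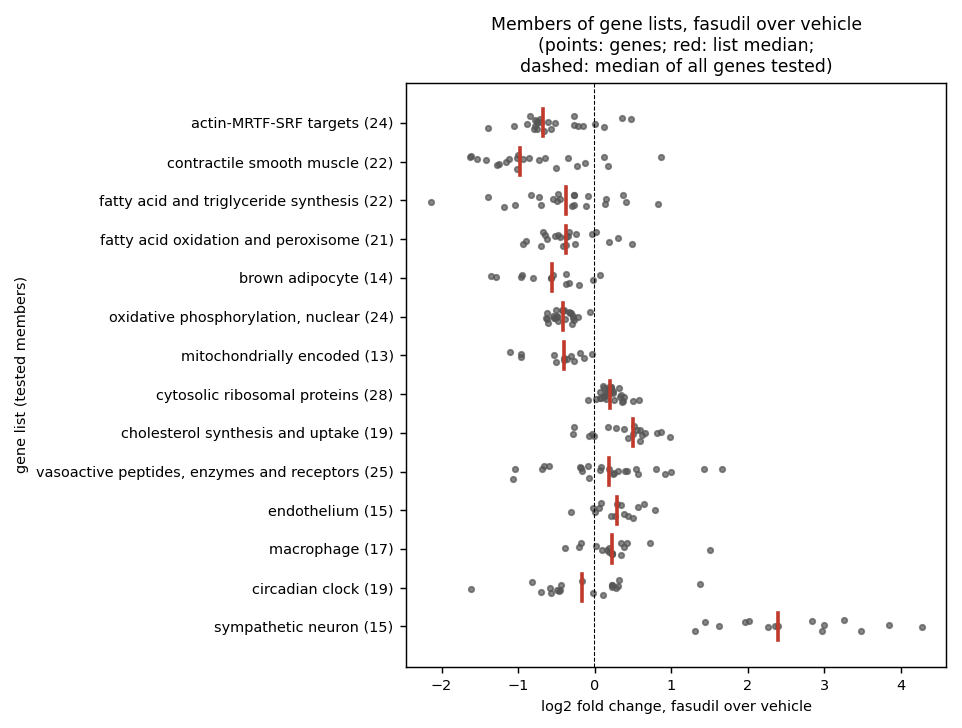
Log2 fold change of fasudil over vehicle for each tested member (points) of 14 gene lists, with the list median in red and the median of all genes tested as a dashed line near 0. Contractile (median -0.97) and actin and SRF genes (-0.68) lie mostly left of the line, and sympathetic neuron genes (2.39) wholly right of it.

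Vasoactive genes held more unadjusted calls than the background, 8 higher (6.41% of all genes) and 2 lower (4.95%) among 25 tested of 32. Agt, the precursor of angiotensin, had 4.46, 6.96 and 2.95 scaled FPKM in fasudil libraries, against 0.19, 0.65, 0.87 and 1.54 in vehicle libraries (log2FC 1.67 ± 0.31, adjusted p = 0.278). Edn1, the vasoconstrictor endothelin-1, had 3.83, 2.82 and 4.40, against 2.31, 1.69, 1.62 and 1.12. Ptgs1, the constitutive cyclooxygenase, had 7.02, 7.97 and 7.70, against 5.02, 5.68, 5.23 and 3.75. All 3 were above every vehicle library. The beta-1 adrenergic receptor gene Adrb1 was on the other side, at 4.57, 3.80 and 2.47 with fasudil and 10.4, 9.81, 4.68 and 10.3 with vehicle.

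Endothelial genes were somewhat high, 13 of 15 tested above 0, 4 higher at an unadjusted p under 0.05 and 6 with groups that did not overlap (background 5.92%), with a median of 0.29. Pecam1, an endothelial adhesion molecule, had 86.9, 114 and 98.8 scaled FPKM with fasudil and 74.8, 76.6, 51.3 and 54.5 with vehicle (log2FC 0.64 ± 0.19, adjusted p = 0.364). Nos3, the endothelial nitric oxide synthase, had 16.1, 22.1 and 16.2, against 12.5, 16.03, 9.45 and 9.88. Flt4, a receptor of lymphatic and other endothelium, had 2.79, 2.76 and 1.77, against 1.25, 1.37, 1.42 and 1.59. The summed endothelial markers were 452, 519 and 403 with fasudil and 429, 390, 292 and 353 with vehicle, and these overlap. Whether Edn1 and Nos3 moved with the number of endothelial cells was not tested.

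Of 18 collagen genes, 15 were below 0, with a median of -0.51 that was -1.17 without fasudil 3 and 0.049 without fasudil 2. The summed contractile markers were low in fasudil 1 and 2 (1602, 1154 and 7744 with fasudil, against 5394, 7725, 5631 and 3203 with vehicle), and their part in the collagen values was not tested. The single collagen at an unadjusted p under 0.05 was in the other direction (6.41% of all genes were higher), Col5a3 at 4.10, 4.72 and 9.42 scaled FPKM with fasudil and 3.11, 3.17, 2.92 and 3.15 with vehicle. Lox, the lysyl oxidase that BAPN inhibits, had 12.6, 8.18 and 16.3, against 8.76, 11.6, 9.57 and 5.43 (log2FC 0.43 ± 0.28, adjusted p = 0.598), and its groups overlap. Spp1, the matrix phosphoprotein osteopontin, had 7.52, 2.44 and 2.15, against 0.37, 0.60, 1.62 and 0.18. Of the 21 matrix glycoprotein and proteoglycan genes tested, 14 were below 0. The median of -0.32 was -0.71 without fasudil 3 and 0.078 without fasudil 2. Spp1 alone was higher at an unadjusted p under 0.05 (6.41% of all genes), and 0 were lower. In TGF-beta and BMP signalling, Id1, a BMP-responsive inhibitor of differentiation, had 40.4, 48.9 and 37.8, against 66.7, 65.0, 73.2 and 58.4 (log2FC -0.63 ± 0.13, adjusted p = 0.304). Skil, a repressor of SMAD proteins, had 2.97, 3.14 and 3.17, against 4.95, 4.28, 4.66 and 5.49. Both were below every vehicle library. Of the 22 genes of this list that were tested, 2, Fst among them, had all fasudil libraries above all vehicle libraries and 3 had them below (5.92% and 5.26% of all genes). At an unadjusted p under 0.05, 1 was higher and 2 were lower (6.41% and 4.95%), and the median of -0.17 was -0.29 without fasudil 3 and 0.062 without fasudil 2.

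Among immediate early genes, 20 of 21 tested, 1 was higher and 2 were lower at an unadjusted p under 0.05 (6.41% and 4.95% of all genes), and the median was 0.02, and -0.16 to 0.16 when 1 library was left out. Nr4a3, an orphan nuclear receptor, had 0.21, 0.57 and 0.57 scaled FPKM in fasudil libraries and 1.23, 1.99, 2.98 and 3.43 in vehicle libraries, while Zfp36 was high.

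Clock genes had values on both sides of vehicle. Arntl, the activator BMAL1, had 3.48, 5.88 and 0.77 scaled FPKM with fasudil, against 0.26, 0.37, 0.78 and 0.47 with vehicle (log2FC 1.38 ± 0.43, adjusted p = 0.388). Ciart, a repressor whose RNA peaks with the other targets of BMAL1, had 2.87, 2.73 and 5.91, against 8.39, 7.86, 6.64 and 5.99. Nr1d2, the repressor REV-ERB beta, had 11.1, 8.22 and 15.5, against 16.5, 16.96, 15.7 and 15.7. Fasudil 1 and 2 stood far from the vehicle range for Arntl and Ciart and fasudil 3 beside it. Of 19 tested, 1 was higher and 4 were lower at an unadjusted p under 0.05 (6.41% and 4.95% of all genes), with a median of -0.16, and 0.037 without scaling. Without fasudil 3, Arntl (adjusted p = 0.0363), Ciart (0.0415), Nr1d1 and Dbp passed, the last 2 named after their values were seen. Dissection times are not given in the sources used here.

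BMAL1 binds the E-box CACGTG, and REV-ERB proteins bind the ROR element. Of 16 clock genes matched to a RefSeq window (GRCm38.p6), 5 held CACGTG on either strand, against 8.09% of 27025 genes, and Arntl alone held a ROR element, against 0.459%. The windows of Ciart (chr3:95882179-95882478, minus strand) and Arntl (chr7:113207261-113207560, plus strand) are shown because the genes lay on opposite sides of vehicle; capitals mark CACGTG in Ciart, at -116, -58 and -44 from the start site, and the ROR element in Arntl. A match is a description of the letters, not evidence of binding.
Ciart: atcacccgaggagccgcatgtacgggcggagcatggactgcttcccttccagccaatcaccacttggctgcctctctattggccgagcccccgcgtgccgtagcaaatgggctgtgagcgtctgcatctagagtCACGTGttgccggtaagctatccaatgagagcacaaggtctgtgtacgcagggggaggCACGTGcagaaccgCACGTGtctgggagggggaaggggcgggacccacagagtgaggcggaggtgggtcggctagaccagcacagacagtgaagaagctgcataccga
Arntl: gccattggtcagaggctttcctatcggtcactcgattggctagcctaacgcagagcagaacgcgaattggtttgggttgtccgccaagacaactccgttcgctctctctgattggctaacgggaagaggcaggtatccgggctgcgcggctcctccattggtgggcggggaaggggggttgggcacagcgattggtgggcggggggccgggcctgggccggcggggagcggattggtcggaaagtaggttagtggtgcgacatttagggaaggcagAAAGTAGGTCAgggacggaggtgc

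All 15 sympathetic neuron markers had a log2FC above 0, with a median of 2.39 (3.81 without fasudil 1), and 8 were at an unadjusted p under 0.05 (6.41% of all genes were higher), yet none separated the groups. Slc6a2, the noradrenaline transporter, had 0.051, 17.7 and 42.8 scaled FPKM in fasudil libraries and 0.095, 1.196, 0.13 and 0.13 in vehicle libraries. Phox2a, a transcription factor of noradrenergic neurons, had 0.082, 6.03 and 15.5, against 0.23, 0.44, 0.21 and 0.071. Fasudil 2 and 3 carried the signal and fasudil 1 was at the vehicle level, so the groups overlap for each marker. Macrophage markers were above 0 in 14 of 17 tested, with 2 higher at an unadjusted p under 0.05 (6.41% of all genes) and a median of 0.22, which was 0.032 without fasudil 1 and 0.38 without fasudil 2. Gpnmb, a glycoprotein of lipid-laden macrophages, had 10.0, 4.81 and 3.78, against 0.92, 1.94, 2.17 and 0.75 (log2FC 1.51 ± 0.34, adjusted p = 0.320), while the summed macrophage markers were 299, 172 and 196, against 154, 196, 593 and 171. Lyz2, named after its values were seen, alone held 483 of the 593 in vehicle 3. Dpep1, a marker of adventitial fibroblasts, had 48.9, 39.9 and 25.7, against 18.4, 21.8, 17.02 and 19.99, and passed without fasudil 3 (adjusted p = 0.0363). Most of its list went the other way, with 11 of 16 tested below 0. The median was -0.07, and -0.32 to 0.22 when 1 library was left out. Dpep1 was the only member higher at an unadjusted p under 0.05 (6.41% of all genes), and 0 were lower.

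The libraries given BAPN offer a second pair that differs by fasudil and shares no library with the first. BAPN with fasudil (3 libraries) was set beside BAPN (2 libraries, since another BAPN column repeats the first). In some genes these 2 BAPN libraries were far apart, with Cidea at 168 and 879 scaled FPKM and Lox at 96.7 and 26.7. The shares below rest on the mean of these 2 libraries. Of the 10 genes named above as higher, 6 were higher in BAPN with fasudil than in BAPN (60%), against 59% of all genes, and of the 9 named as lower, 5 were lower (55.6%), against 41%. With all 4 groups scaled together, Rock1 had 11.4, 18.5 and 14.0 in BAPN with fasudil and 13.4 and 13.2 in BAPN, beside 6.82, 6.09 and 8.43 with fasudil and 12.6, 12.2, 13.6 and 10.7 with vehicle. The fasudil libraries were thus the lowest of the 12, and the fasudil effect with BAPN minus that without it was 0.83 ± 0.25 on the log2 scale (SE; limma, adjusted p = 0.837). Over all genes limma called 1 of 13748 for that difference, a gene not named here, with 724 at an unadjusted p under 0.05. Over the genes named here, the lowest adjusted p of that difference was 0.680, for Vamp1.

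**Figure D5:**
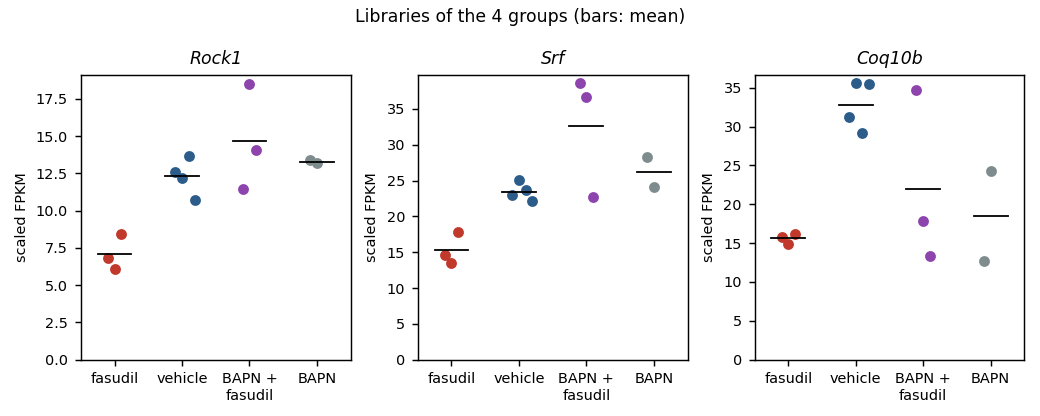
Scaled FPKM of Rock1, Srf and Coq10b in the 12 libraries, scaled together, for fasudil, vehicle, BAPN with fasudil and BAPN; points are libraries, bars are means, and each axis starts at 0. The libraries of fasudil alone are the lowest for Rock1 (6.09 to 8.43) and for Srf, while for Coq10b those of the BAPN groups reach as low.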

How the data were processed

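RNA sequencing of mouse aorta was used, 3 fasudil and 4 vehicle libraries, with 5 further libraries for a side comparison. The authors deposited 1 table of FPKM values with 36082 rows, of which 28510 genes have values; per the file headers the unit is FPKM, given to 2 decimals. The submitters' processing notes, which give no versions or roles, name Bowtie2, RSEM, DESeq2 and the builds GRCm39 and mm10; positions are as in the table and differ from RefSeq's GRCm38.p6 ones, so they are given as GRCm39. TRIzol served for RNA extraction, per the labels' protocols. DESeq2 was not run here, because the table holds no counts. In each of the 28510 genes BAPN replicate 2 is BAPN replicate 1 with 1 FPKM added, and it was not used. Steps between low FPKM values fit a depth of about 20.4 to 20.8 M reads per library, an estimate in which 53.8% to 59.3% of low values fell within 0.1 of a whole read.

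Libraries were scaled with an unweighted trimmed mean of log ratios (trimming 30% of ratios and 5% of levels from both tails). A gene that reached 1 FPKM in 2 of the 7 libraries entered limma 3.58.1, run on log2 of the scaled value with a pseudocount of 1 (R 4.3.3; trend and robust prior, no covariate, Benjamini-Hochberg over 12718 genes, threshold 0.05). Log2FC is on that scale, which understates changes of low genes. Summed marker levels were compared with exact two-sided permutation tests over 35 splits. The interaction with BAPN was fitted on 12 libraries. The steps were tested on simulated data.

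Genes named are those of at least 5 scaled FPKM in the higher group whose groups do not overlap, the 10 of smallest p in each direction because none passed, plus Rock1, Rock2, Rhoa, Lox and Acta2 and up to 4 members of each of 47 lists by smallest p; some of these genes are not reported here. The members and lists were chosen with earlier results of these data known. Alternatives changed the scaling, pseudocount, filter, libraries in the fit, prior, weights and replicate block, and left out each library in turn.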

Additional observations from a re-analysis of the deposited data

Results flagged for a closer look

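Of 151 quantities examined, 14 had a value in 1 vehicle library that lies far from the other 3; chance gives such a value in about 1 of 20 groups. In vehicle 3, Apod was at 46.5 scaled FPKM (the others 20.6 to 24.3), Adrb1 at 4.684 (9.81 to 10.4), Thbs1 at 3.001 (0.917 to 1.17) and Cxcl13 at 1.741 (0.155 to 0.364). In the same library the summed markers were 593.4 for macrophages (154 to 196), 782.7 for neutrophils (4.08 to 10.4), 203.9 for mesothelium (14.9 to 44.7), 126.8 for cardiomyocytes (19.2 to 32.7) and 12710 for airway and other epithelium (3.17 to 6.90), and the potassium and calcium handling genes summed to 249.4 (266 to 269). In vehicle 3, Ltf alone held 780 of the neutrophil sum and Lyz2 alone 483 of the macrophage sum. These 2 sums therefore do not stand for their whole lists. The mesothelium sum of vehicle 3 was uneven too, with Krt19 at 73.2, Msln at 57.1, Krt18 at 27.9 and Krt8 at 27.3. Its Upk3b, named after its values were seen, was at 4.9, against 9.87 in vehicle 2. In vehicle 1, Vamp1 was at 4.853 (3.36 to 3.44) and Hlf at 16.49 (9.99 to 10.9). In vehicle 2, Mmp11 was at 4.935 (3.76 to 3.91) and Slc6a2 at 1.196 (0.0954 to 0.135).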

How the results depend on the processing

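With all 7 libraries, limma called 0 genes under each of the 13 alternatives of scaling, pseudocount, filter, libraries in the fit, prior, weights and replicate block, with 956 (replicate block) to 2502 (library quality weights) at an unadjusted p under 0.05. Leaving out 1 library gave 0 to 203 called genes: 203 without fasudil 1, 100 without fasudil 3 and 0 without any other, with 851 to 2380 at an unadjusted p under 0.05. Same-numbered libraries of the 2 groups deviated with correlations of 0.0598, -0.34 and 0.169. So few values cannot decide whether the numbers pair the samples. The replicate block gave 0 calls.

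For the 102 genes considered for naming, 1316 of 1320 values under those alternatives kept their direction and their side of the threshold. The other 4 changed sign: without scaling, Rock2 was 0.060 and Rhoa 0.15, and with mitochondrial genes left out of the totals, Rock2 was 0.017 and Rhoa 0.10; the all-gene median moved to 0.158 and 0.117 in those settings. Leaving out libraries kept 677 of 706 values on their side and took 29 past the threshold, none with a change of sign. FPKM carry no counts, so depth per value is unknown, and 3 against 4 libraries allow no exact two-sided p below 0.0571.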

Other observations

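Genes of drug handling and stress gave single separations in fasudil against vehicle. Gsta4, a glutathione transferase for lipid aldehydes, had 31.4, 19.2 and 24.9 scaled FPKM in fasudil libraries and 46.0, 41.5, 78.9 and 48.6 in vehicle libraries (log2FC -1.05 ± 0.25, limma adjusted p = 0.321). Cyp1a1, a cytochrome of the aryl hydrocarbon receptor, had 0.22, 0.43 and 1.01, against 2.71, 1.196, 2.14 and 5.70, and Abcb1a, a drug efflux pump, had 2.25, 2.92 and 3.63, against 1.54, 1.51, 1.79 and 1.63. Sult1a1, a sulfotransferase, stood at 117 and 128 in fasudil 1 and 2 and 36.6 in fasudil 3, against 34.1, 25.5, 37.6 and 32.1, and passed without fasudil 3 (adjusted p = 0.0196). Of 23 drug and aldehyde genes tested, 4 were higher and 2 lower at an unadjusted p under 0.05 (6.41% and 4.95% of all genes), with a median of -0.05, and -0.12 to 0.19 when 1 library was left out.

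Of 14 gluconeogenic and glycogen genes, all tested, 13 had a log2FC below 0, with a median of -0.30, -0.11 without scaling and -0.53 to -0.20 when 1 library was left out. At an unadjusted p under 0.05, 2 were lower and 0 higher (4.95% and 6.41% of all genes). Of 21 glycolysis and hypoxia genes tested, 2 were higher and 3 lower at an unadjusted p under 0.05 (6.41% and 4.95%), with a median of -0.15, 0.034 without scaling and -0.013 without fasudil 3. Gbe1, the glycogen branching enzyme, had 40.3, 34.7 and 37.8 with fasudil, against 85.9, 54.2, 40.5 and 67.5 with vehicle. Trib3, a stress-induced pseudokinase, was high in fasudil 2, at 4.44, 13.1 and 3.54, against 2.53, 1.99, 1.83 and 3.41. Of 21 cytokine, chemokine and complement genes tested, 1 was higher and 2 were lower at an unadjusted p under 0.05 (6.41% and 4.95%). Their median was -0.03. Cxcl14 had 1.97, 1.37 and 1.58, against 3.27, 2.77, 3.30 and 3.63 (log2FC -0.69 ± 0.13, limma adjusted p = 0.278). Cxcl13 was on the other side, at 6.11, 6.13 and 1.02, against 0.16, 0.33, 1.74 and 0.36, and its groups overlap. No interferon or antigen presentation gene of 21 tested was at an unadjusted p under 0.05 (11.4% of all genes).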
